A study of Neurospora crassa with 12 samples.

Results

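The baseline of Neurospora crassa mycelium was described from the 4 libraries titled wild type, strain N150, of 12 libraries in all. These 4 were chosen by their titles, and each held a count for 9730 genes. N150 is of mating type A and carries no labelled deletion. The study set it against NKL2, also of mating type A, from which the heterochromatic region LGIIK9het25 was removed (ΔLGIIK9het25::hph), and against N3944, labelled mat x, in which dim-5 was deleted (Δdim-5::bar+). The gene dim-5 encodes the enzyme that puts the heterochromatin mark H3K9me3 on histones. Each mutant is represented by 1 strain with 4 libraries. All strains were grown in liquid, in sucrose (1.5%) Vogel's medium at 32 °C for 16 h, and mycelium was collected by filtration. The labels call the 4 libraries of a strain replicates and do not say that they came from separate cultures, so the spread described here may in part be technical and p-values measure the spread between these libraries alone. The labels used here give no light regime for the cultures. Replicate numbers are those of the titles, and the numbers in the deposited files' names differ from them.

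A mycelium is a network of hyphae that grow at their tips and take sugar from the medium. Sugar is broken down by glycolysis and then respired or fermented to ethanol, and while sugar is plentiful the genes for gluconeogenesis and the glyoxylate cycle are held down. Blue light acts through the white collar complex, a photoreceptor and transcription factor made of WC-1 and WC-2, which switches on genes for carotenoid pigments, DNA repair and further photoreceptors. In air, or when food runs out, hyphae can turn to making asexual spores (conidia), whose programme shares many genes with the circadian clock's output.

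Levels are given as CPM, a gene's count scaled to a total of 1000000 counts in genes for each library. A long transcript collects more reads than a short one, and gene lengths of the build behind the counts were not used here, so a high level means a large share of reads and not of molecules. Counts in genes were 11029306, 7164944, 12423603 and 8451199 in replicates 1 to 4. Reads outside genes took 18.5%, 36.8%, 13.4% and 8.85% of the entries in the same order. Between 8954 and 9174 genes had at least 1 count in a library, and 8519 genes (87.6%) had one in all 4. The deleted dim-5 was present in the wild type at 7.80, 6.98, 8.77 and 6.15 CPM, and in Δdim-5 at no more than 0.0836 CPM.

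The labelled tissue was checked against markers. The Woronin body protein gene hex-1, whose product plugs the pores between hyphal compartments, stood at 7023, 5347, 5127 and 5738 CPM, and 7 of 8 hyphal markers had a mean of at least 10 CPM, as did 6216 of the 9730 genes. The exception was the chitin synthase gene chs-6, with a mean of 2.40 CPM. Of the 8 asexual spore markers, 6 had a mean of at least 10 CPM, among them acon-2 with a mean of 39.5 CPM. The hydrophobin gene eas reached 2295 CPM in replicate 3. The exceptions were con-13, at 0.272 to 1.30 CPM, and acon-3, needed for conidiophore formation, at 1.53 to 3.17 CPM. The summed level of the 8 spore markers was 415, 797, 2713 and 544 CPM. Of the 10 sexual markers, matA-1, the mating type gene that N150 should carry, stood at 1.18, 3.07, 6.04 and 1.77 CPM, and spo11, sms-2, sad-1, matA-2 and matA-3 stayed at or below 1.13 CPM. The other 4 had a mean of at least 10 CPM, namely asd-1 at 105.5 to 189.6 CPM, asd-4 at 29.0 to 35.3 CPM, and ccg-4 and poi-2, which were uneven between libraries. The summed level of the 10 was 144, 218, 287 and 233 CPM, against 10763, 8756, 8574 and 9421 CPM for the 8 hyphal markers. The part of other cell types in the results was not tested. In bulk libraries such as these, fewer cells of a type and less RNA per cell cannot be told apart.

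Of the 20 genes with the most reads in the wild type, 14 have a symbol, and of the 100 with the most, 39. The 20 genes with the most reads held 11.6%, 12.6%, 11.2% and 13.0% of the gene counts (12.1% ± 0.870, SD, n = 4), and the leading 100 held 30.6% ± 2.21. In replicate order, 311, 270, 347 and 251 genes made up 50% of the counts. At the other end, 1280 genes with more than 3 counts had a mean under 1 CPM, 1739 lay between 1 and 10 CPM, 4413 between 10 and 100, 1631 between 100 and 1000, and 172 at 1000 or more. Those 172 genes took 40.6% ± 2.64 of the counts.

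The largest share went to NCU06110, which has no symbol in the RefSeq table, at 9867, 11722, 15362 and 15251 CPM. It was followed by nmt-1, of thiamine synthesis, at 8507, 11580, 12817 and 14743 CPM. The third was tef-1, translation elongation factor 1-alpha, which brings aminoacyl-tRNA to the ribosome, at 9206, 11708, 12478 and 11904 CPM. All 3 were lowest in replicate 1. So were the glycolytic genes gpd-1, for glyceraldehyde-3-phosphate dehydrogenase, at 4398, 8544, 6372 and 7173 CPM, and emp-7, for enolase, at 3388, 6169, 4879 and 6874 CPM. Genes next to each other in rank overlap in range, so the order among the leading genes is not fixed by these 4 libraries.

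The mitochondrial ADP/ATP carrier gene aac stood at 5610, 5323, 6174 and 6707 CPM. The plasma membrane proton pump gene pma-1, whose product powers nutrient uptake, stood at 6147, 5686, 4293 and 4771 CPM. It was lowest in replicate 3, as were acw-9, of the anchored cell wall proteins, at 3999 CPM against 5058 to 6007 CPM, and cfp. The gene oli, which encodes the proteolipid ring subunit of mitochondrial ATP synthase, stood at 3057, 2950, 3328 and 3681 CPM. The clock-controlled genes ccg-16, ccg-15 and ccg-6 were among the 20, the last at 4284, 4380, 3893 and 4592 CPM with an SD of 0.10 on the log2 scale. In the RefSeq gene order of assembly NC12, aac lies next to NCU09476, and NCU09475 is the third abundant gene of that run.

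**Figure D1:**
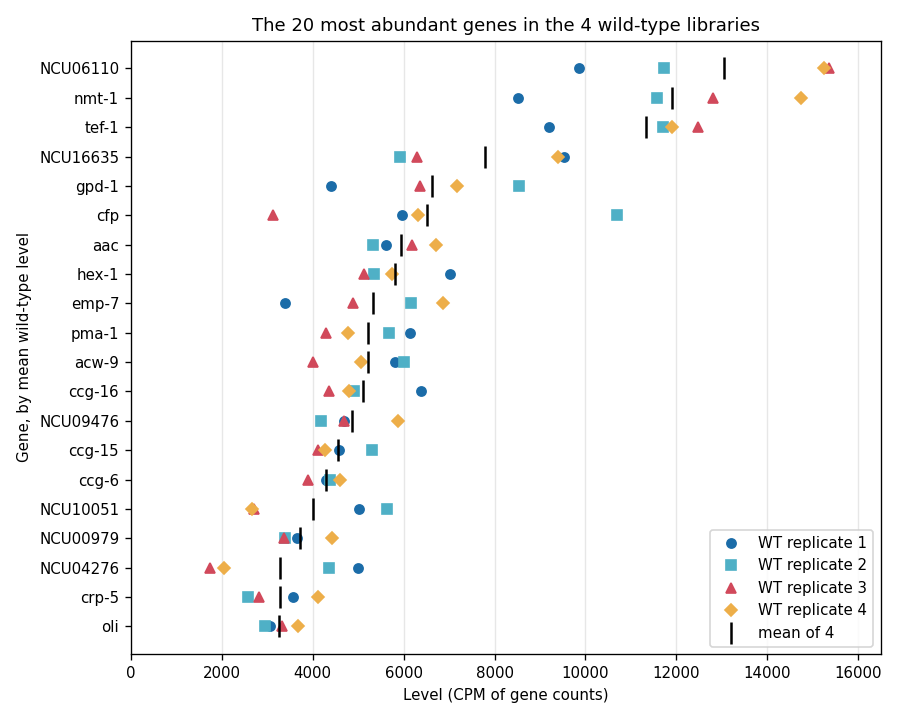
CPM of gene counts (x axis) of the 20 genes with the highest mean wild-type level (y axis) in each of the 4 wild-type libraries (symbols), with the mean as a bar. The point for cfp in replicate 2 (10687 CPM) stands well to the right of its other libraries, and the points of oli and ccg-6 lie close together.

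Replicate 4 gave the highest value for 67 of the 100 most abundant genes and replicate 3 for 3. Over the 6216 genes with a mean of at least 10 CPM, replicate 4 led for 13.0% and replicate 3 for 45.2%. The list of ribosomal protein genes holds only 9 genes matched by symbol, which may not be the whole family. All 9 were highest in replicate 4. Their summed level was 18903, 17945, 18806 and 23762 CPM, and the median member stood 0.29 above its wild-type mean on the log2 scale in replicate 4. The place of replicate 4 held under TMM, RLE and upper-quartile scaling, with medians of 0.33, 0.34 and 0.36. Among them crp-5, the most abundant of the 9, was at 3574, 2582, 2825 and 4111 CPM.

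Several lists of basal machinery varied less than genes at large. The median SD of log2(CPM + 0.5) over the 4 libraries was 0.25 over the 6216 genes with a mean of at least 10 CPM. It was 0.13 for 40 genes of the respiratory chain and ATP synthase, 0.13 for 15 proton pump genes, 0.14 for 9 histone genes, 0.18 for 20 genes of the TCA cycle and 0.20 for the 9 listed ribosomal proteins. Histone H3 (hH3) stood at 2785, 3004, 2779 and 2783 CPM. None of the members of these 5 lists had an SD of 1 or more. Spread fell with level, to a median SD of 0.21 for genes of 100 to 1000 CPM and 0.18 for those of 1000 or more. The listed ribosomal proteins, with no mean under 1349 CPM, thus varied no less than genes of like level. The 9 glycolytic genes varied more than genes at large, with a median SD of 0.33.

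**Figure D2:**
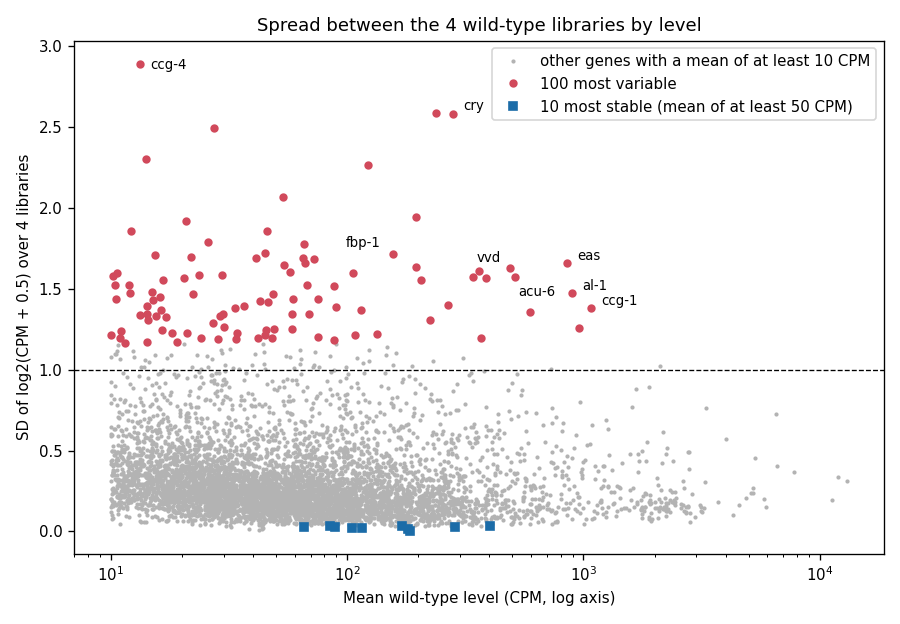
SD of log2(CPM + 0.5) over the 4 wild-type libraries (y axis) against the mean level (x axis, CPM, log axis) for the 6216 genes with a mean of at least 10 CPM. The dashed line marks an SD of 1, and 160 genes lie on or above it, among them the labelled light, clock-controlled and gluconeogenic genes.

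An SD of 1 on the log2 scale or more, which is a large spread between libraries given the same label, was found for 160 of the 6216 genes (2.57%). By level, they were 123 of the 4413 genes with a mean of 10 to 100 CPM (2.79%), 35 of the 1631 with 100 to 1000 (2.15%) and 2 of the 172 with 1000 or more (1.16%), which were ccg-1 and NCU16673. The first gene below the threshold had an SD of 0.9997 and the last above it 1.001. Replicate 3 was the highest library for 120 of the 160, against 45.2% of all 6216 genes, and the number of such genes was 94 without it. Replicates 3 and 4 were the leading pair for 98 of the 160 (61.3%, against 30.0% of all 6216) and replicates 1 and 2 for 22 (13.8%, against 19.7%). The median gene lay 0.11 above its wild-type mean in replicate 3 under library totals, and 0.01 below it under TMM scaling.

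Libraries were also compared in pairs. Across the 6216 genes, which are not independent replicates, Pearson's r of log2(CPM + 0.5) ran from 0.916 between replicates 1 and 3 to 0.968 between 1 and 2 and between 3 and 4. The number of genes at least 2-fold apart ran from 192 for replicates 1 and 2 to 692 for 1 and 3. Counts of no pair agreed within sampling noise, since chi-square per degree of freedom was between 31.3 and 104.9, so none was treated as a second deposit of another. This does not show that they came from separate cultures, and n = 4 counts libraries.

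Most of the listed light-regulated genes were high in replicates 1 and 2 and low in 3 and 4. The cryptochrome gene cry stood at 487, 591, 24.6 and 23.1 CPM. The gene vvd, whose product is the blue-light photoreceptor VIVID that damps the white collar response, stood at 871, 830.4, 157 and 97.6 CPM. Both genes thus differed several-fold between the first and the last pair of libraries, and vvd also differed between replicates 3 and 4.

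The carotenoid genes followed. The phytoene desaturase gene al-1 stood at 2180, 868, 314 and 231 CPM, and the phytoene synthase gene al-2 at 621, 378, 213 and 130.0 CPM. The photolyase gene phr, of light-driven DNA repair, stood at 282, 224, 69.6 and 65.3 CPM. The clock gene frq differed less, at 458, 401, 247 and 204 CPM.

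The genes of the photoreceptor complex itself differed least in this list. The level of wc-1 was 191, 165, 106 and 119 CPM, and that of wc-2 was 87.0, 61.5, 116 and 92.8 CPM, so wc-2 alone of the 11 listed genes was highest in replicate 3. Over the list, 9 of 11 genes were highest in replicate 1, 7 were lowest in replicate 4, and 4 (cry, vvd, al-1 and phr) had an SD of 1 or more. The remaining members, al-3, cao-2 and sub-1, were all highest in replicate 1. Of the 6216 genes with a mean of at least 10 CPM, 28.0% were highest in replicate 1 and 28.3% lowest in replicate 4. The share of reads outside genes was also higher in replicates 1 and 2 than in 3 and 4, and its part in the light genes' levels was not tested.

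The same genes were uneven in ΔLGIIK9het25. There cry stood at 480.3, 639, 115 and 76.0 CPM and vvd at 903, 1388, 347 and 264 CPM, again with replicates 1 and 2 above 3 and 4. Reads outside genes took 13.3%, 31.8%, 6.05% and 5.17% in those libraries. In Δdim-5 cry stood at 299.5, 367, 451 and 488 CPM and vvd at 777, 1010, 981 and 709 CPM, with reads outside genes at 7.29%, 6.41%, 4.76% and 3.62%. For cry the Δdim-5 libraries thus lay above the 2 low wild-type libraries by a wide margin and, but for replicate 4, under the 2 high ones. The labels do not tie same-numbered libraries of different strains to each other.

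Gluconeogenic and glyoxylate cycle genes were highest in replicate 3 in 6 of 6 cases. Replicate 3 led for 45.2% of the 6216 genes with a mean of at least 10 CPM. The gene acu-6, which encodes phosphoenolpyruvate carboxykinase, the entry step of gluconeogenesis, stood at 174, 117, 1391 and 363 CPM. Malate synthase, from acu-9, stood at 146, 63.9, 819.7 and 329 CPM, and isocitrate lyase, from acu-3, at 135, 83.5, 438 and 266 CPM. These 2 enzymes carry the glyoxylate cycle, which lets cells build sugar from acetate. For all 3, replicate 2 was the lowest library and replicate 4 the second highest.

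Acetyl-CoA synthetase (acu-5) differed less, at 392, 463, 794 and 591 CPM. So did the acetyl-CoA hydrolase gene acu-8, at 151, 159.7, 432 and 294 CPM, and the regulator gene acu-15, at 105, 93.9, 165 and 122 CPM. The summed level of the 6 genes was 1103, 981, 4039.8 and 1966 CPM. The gene fbp-1, fructose-1,6-bisphosphatase, a later irreversible step of gluconeogenesis, is not in that list and stood at 77.0, 21.5, 334 and 191 CPM, in the same order of libraries.

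Fermentation genes ran the other way. The pyruvate decarboxylase gene cfp stood at 5957, 10687, 3138 and 6311 CPM and the alcohol dehydrogenase gene adh-1 at 2288, 3351, 1411 and 2019.8 CPM. Both were highest in replicate 2, where the gluconeogenic sum was lowest, and lowest in replicate 3, where it was highest. Of the glycolytic genes, 4 of 9 were highest in replicate 2 and 6 of 9 lowest in replicate 1, and their sum was 14289, 24297, 18548 and 23192 CPM. With 4 libraries, no relation between these sums was tested. Of the 6216 genes with a mean of at least 10 CPM, 13.9% were highest in replicate 2 and 22.7% lowest in replicate 1.

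**Figure D3:**
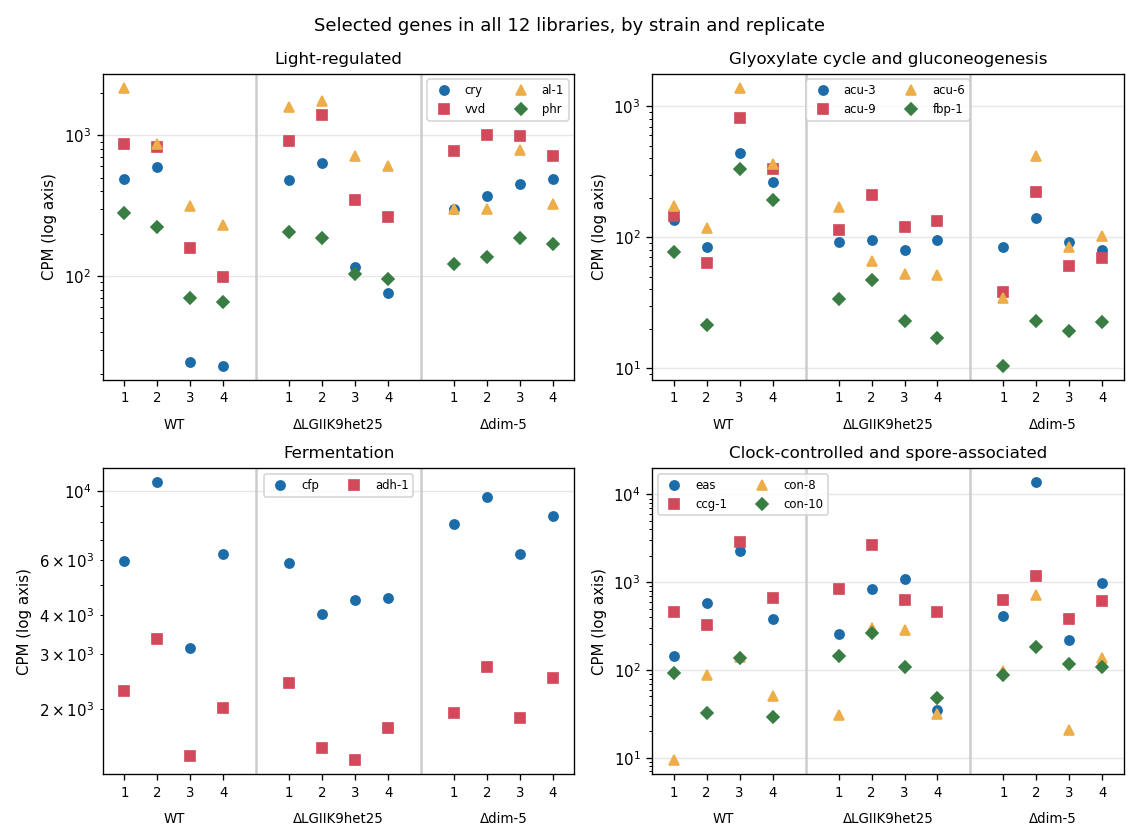
CPM (y axes, log axis) of light-regulated, gluconeogenic, fermentation and clock-controlled or spore-associated genes in every library, by strain and replicate number (x axes). In the wild type cry stands at 591 CPM in replicate 2 and at 23.1 CPM in replicate 4, acu-6 reaches 1391 CPM in replicate 3, and eas reaches 13764 CPM in Δdim-5 replicate 2.

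Clock-controlled and spore-associated genes split by gene. The glucose-repressible gene ccg-1 stood at 457, 329.7, 2873 and 654 CPM. The hydrophobin gene eas, whose product coats conidia and makes them water-repellent, stood at 143, 584, 2295 and 383 CPM. Both were highest in replicate 3, and so were con-8 at 9.34, 88.3, 142 and 50.9 CPM and con-10 at 91.8, 32.2, 139 and 29.0 CPM. The gene con-6 did not share this order, at 75.2, 13.5, 60.0 and 18.9 CPM. The regulator of conidiation fl, by contrast, kept to 45.7, 29.0, 43.8 and 25.6 CPM.

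The widest spread of all 6216 genes was that of ccg-4, the pheromone precursor gene of mating type A, at 0, 28.5, 23.5 and 1.18 CPM (SD 2.89 on the log2 scale). Its pattern, high in replicates 2 and 3, was shared by none of the light or gluconeogenic genes named above. The gene poi-2, known from fruiting body development, stood at 1.18, 3.77, 34.5 and 9.11 CPM and nop-1, an opsin gene, at 2.81, 5.02, 67.5 and 7.69 CPM. These are low levels, and in replicate 1 rest on few reads.

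**Figure D4:**
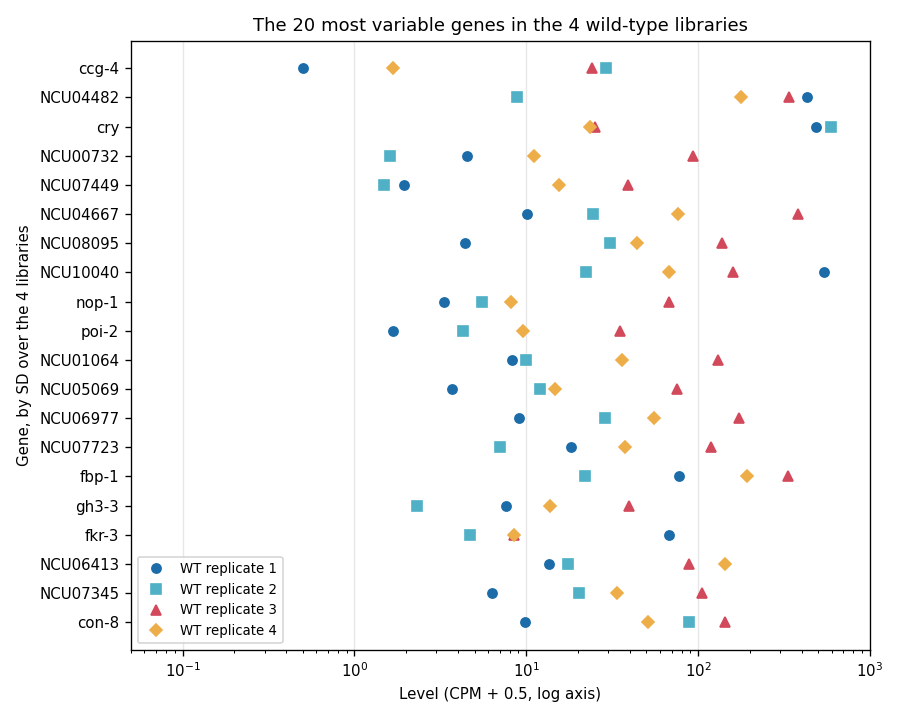
Level (x axis, CPM + 0.5, log axis) of the 20 genes with the largest SD over the wild-type libraries (y axis) in each library (symbols). Replicate 3 is the rightmost symbol for 14 of the 20 genes, and cry and NCU04482 show a pair or a single library far to the left.

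Only 8 of the 20 most variable genes have a symbol. Among those without one, NCU04482 stood at 429.9, 8.37, 336 and 178 CPM and was low in replicate 2 alone. The gene NCU00732 stood at 3.99, 1.12, 93.4 and 10.6 CPM and was high in replicate 3. The gene NCU10040 stood at 537, 21.8, 159 and 67.1 CPM, highest in replicate 1. A further 8 genes without a symbol (NCU07449, NCU04667, NCU08095, NCU01064, NCU05069, NCU06977, NCU07723 and NCU07345) were highest in replicate 3, between 38.8 CPM for NCU07449 and 383 CPM for NCU04667, and lowest in replicate 1 or 2. NCU06413 stood at 13.0, 16.9, 87.5 and 143 CPM, with replicates 3 and 4 above 1 and 2.

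Each library also had genes of its own. In replicate 1, fkr-3 stood at 67.5 CPM against 4.19 to 7.97 CPM in the others, and NCU00859 at 35.1 CPM against 2.82 to 5.56 CPM. Replicate 1 was low in mig-9, at 212 CPM against 1079 to 1291 CPM. In replicate 2, gh10-3, of a glycoside hydrolase family that holds xylanases, stood at 138 CPM against 42.3 to 68.5 CPM, while the trehalase gene tre-1 was low there, at 2.65 CPM against 12.1 to 35.0 CPM.

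Replicate 3 stood apart in nop-1 and in NCU05143, at 169 CPM against 13.6 to 26.2 CPM, and was low in NCU08099 and NCU08100, at 19.2 and 11.9 CPM against at least 54.7 and 34.3 CPM. Replicate 4 was low in the blue-light-induced gene bli-3, at 62.5 CPM against 119 to 196 CPM, and in cax, a calcium exchanger gene, at 42.4 CPM against 97.3 to 203 CPM. In the whole group of 160, 25 genes have a symbol. Beside those already named they hold fdh (formate dehydrogenase), tcu-1, dak-1 (dihydroxyacetone kinase), gel-1 (a glucan-modifying enzyme of the wall), gh3-3 and mig-6.

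The formate dehydrogenase gene fdh stood at 429, 38.2, 263 and 92.5 CPM, with replicates 1 and 3 above 2 and 4. Of the 4 nitrate genes, nit-3, which encodes nitrate reductase, stood at 46.9, 140.0, 167 and 225 CPM and was the most variable, while the regulator gene nit-4 kept to 12.3 to 15.1 CPM. The list for cellulose and starch breakdown took in every gene with a glycoside hydrolase (gh) symbol, whatever its substrate. The 39 of its genes that reached 10 CPM had a median SD of 0.29, and gh3-3 was the single one at 1 or more. The gene gla-1, which encodes the secreted starch enzyme glucoamylase, stood at 208, 137, 196 and 203 CPM.

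**Figure D5:**
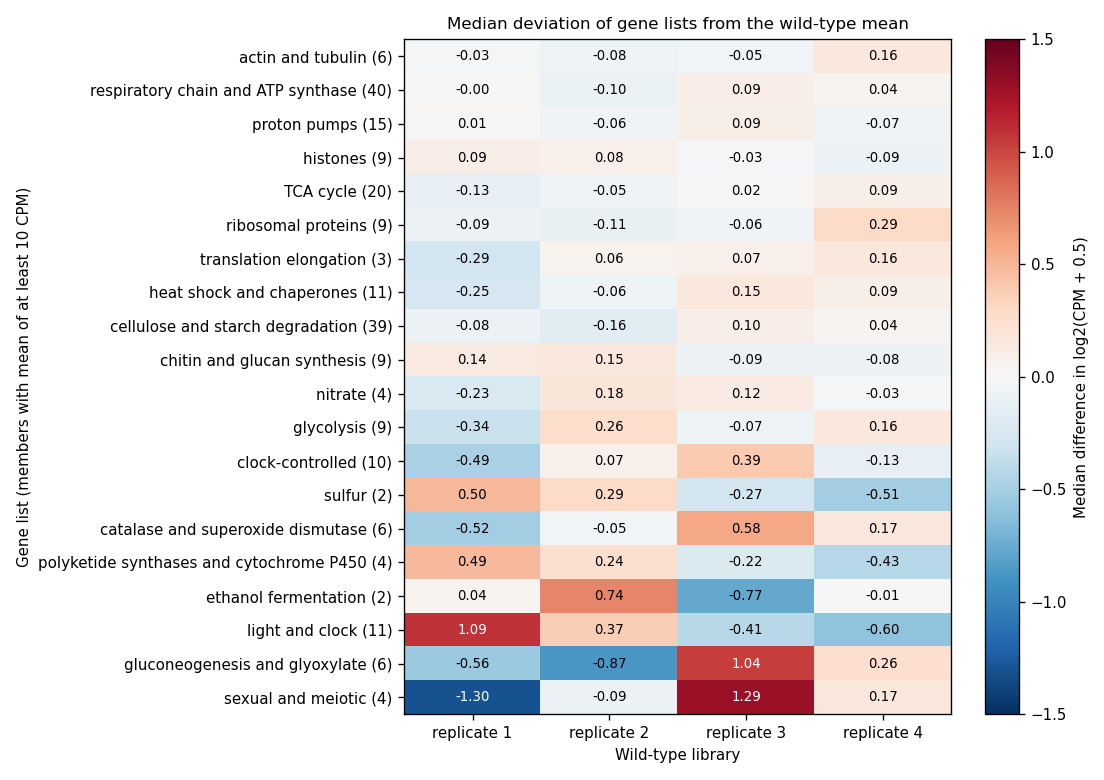
Median difference in log2(CPM + 0.5) from the wild-type mean (colour and printed value) for each gene list (y axis, with its members of at least 10 CPM in brackets) in each wild-type library (x axis). Light and clock genes stand at 1.09 in replicate 1 and -0.60 in replicate 4, gluconeogenesis and glyoxylate at 1.04 in replicate 3 and -0.87 in replicate 2, and ethanol fermentation at 0.74 in replicate 2 and -0.77 in replicate 3.

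The steadiest genes stood within a few percent. NCU03905 had 185 CPM in replicates 1 and 2 and 184 CPM in 3 and 4, an SD of 0.01 on the log2 scale. The proteasome ATPase gene rpt-1 stood at 180, 181, 183 and 178 CPM. The gene rco-1, which encodes a transcriptional co-repressor, stood at 283, 293, 287 and 280 CPM, and the kinase gene stk-26 at 83.2, 86.3, 85.6 and 82.0 CPM. The 10 steadiest genes with a mean of at least 50 CPM had a median SD of 0.03 in the wild type, and the same 10 had a median SD of 0.12 in ΔLGIIK9het25 and 0.17 in Δdim-5. They were chosen for a small wild-type SD, so a larger SD in other libraries follows from the choice and shows no loss of steadiness in the mutants. In ΔLGIIK9het25, stk-26 stood at 59.0, 123, 55.2 and 52.3 CPM, the widest spread of the 10 there. Of the 10, 9 stayed under the median SD of all genes in ΔLGIIK9het25 and 7 in Δdim-5.

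Silent genes were few. Of the 9730 genes, 231 (2.37%) had no count in any wild-type library, and a further 264 had 1 to 3 counts over the 4. A count of 0 over the 4 libraries allows a level of up to 0.0768 CPM (3 counts, counting error alone). Ambiguous reads, which took 1.78% to 2.82% of the wild-type entries, are in no gene's count. A gene at 0 that overlaps another may thus still be transcribed. Of the 231, 8 have a symbol, namely nst-5, T, gh61-4, oxa-2, rbg-40, pod-1, pks-5 and msh4. The symbol msh4 stands for a meiotic recombination gene, T for tyrosinase, which makes melanin, and pks-5 for a polyketide synthase. All but gh61-4 were at 0 in the 8 mutant libraries too, and gh61-4 had 21 counts in ΔLGIIK9het25 and 2 in Δdim-5.

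Most of the silent genes had few counts in the mutants as well. In ΔLGIIK9het25, 129 of the 231 had no count, which is 55.8% of the wild-type set and 71.7% of the 180 genes at 0 there. In Δdim-5, 115 had none, which is 49.8% of the wild-type set and 81.6% of the 141 genes at 0 there. In all 12 libraries, 103 genes were at 0. Both mutants have more counts in all than the wild type, at a mean of 12526974.5 and 17221565 per library against 9767263, so a gene at 0 in the wild type had more chances of a count in them.

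A mean of 1 CPM or more was reached by 6 of the 231 in ΔLGIIK9het25 and by 5 in Δdim-5. The highest was NCU07770 in Δdim-5, at 7.51, 11.6, 7.82 and 8.48 CPM, a mean at least 115-fold above the limit that the wild-type zero allows, while ΔLGIIK9het25 had it at 0, 0, 0.0623 and 0 CPM. In ΔLGIIK9het25 the highest was NCU01462, at 2.52, 3.17, 2.43 and 1.89 CPM, at least 32.6-fold above that limit. It stood at 1.10, 0.845, 0.454 and 0.418 CPM in Δdim-5. NCU08654 was seen in ΔLGIIK9het25 at 1.06 to 1.71 CPM and in Δdim-5 at no more than 0.0704 CPM, and NCU05823 and NCU06793 were higher in Δdim-5, with means of 2.62 and 2.17 CPM against 0.284 and 0.992 CPM. NCU16494 rested on 1 library in Δdim-5, at 9.08 CPM against at most 0.366 CPM. These genes were picked for their mutant levels, which are given with no test.

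Genes with hardly any reads were in part grouped along the chromosomes. In the NC12 gene order, 115 of the 495 genes with at most 3 counts (23.2%) had another such gene as a direct neighbour, whereas 9.67% of all 9729 placed genes had one. The longest run had 6 members, from NCU00529 to NCU00534, and 16 runs had 3 or more. The genes with an SD of 1 or more also had neighbours of their kind, 10.0% of them against 2.83% of the genes with at least 10 CPM, with 2 runs of 3 (NCU04537 to NCU04539 and NCU06061 to NCU06063). Counts were made without regard to strand, so reads of overlapping neighbours can be shared between them, and no test was made of these shares.

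Spread between libraries was measured in the mutants as well. The median distance of a library from the other 3 of its strain, over 6356 genes, was 0.229 ± 0.027 on the log2 scale in the wild type (SD, n = 4) and 0.210 ± 0.055 in ΔLGIIK9het25 (exact two-sided permutation test, p = 0.571). In Δdim-5 it was 0.273 ± 0.031 (exact two-sided permutation test, p = 0.0571, adjusted over 2 tests 0.114, where 0.0286 is the smallest p possible). An SD of 1 or more was found for 136 of 6302 genes in ΔLGIIK9het25 (2.16%) and for 116 of 6255 in Δdim-5 (1.85%).

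Genes variable in the wild type tended to be variable elsewhere. Of the 100 most variable, 97 had an SD above the median of ΔLGIIK9het25 and 88 above that of Δdim-5, and 45 and 28 reached an SD of 1. The lists of the 100 most variable genes of the wild type and ΔLGIIK9het25 shared 34 genes, among them ccg-4, cry, nop-1, con-8, eas, vvd, fdh, ccg-1 and mig-9. Those of the wild type and Δdim-5 shared 25, among them ccg-4, nop-1, con-8, eas, acu-9 and acu-6. The single highest library was replicate 2 for 63 of the 100 in ΔLGIIK9het25 and for 53 in Δdim-5. The share of all genes led by that library is not given here for either mutant. In both mutants replicate 2 was also the library furthest from the other 3 of its strain, at 0.286 and 0.308 on the log2 scale. That library of Δdim-5 had eas at 13764 CPM against 221 to 982 CPM in the other 3, and that of ΔLGIIK9het25 had ccg-1 at 2635 CPM against 461 to 841 CPM.

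The 4 wild-type libraries are the controls of both mutants, so the 2 comparisons share them. Members were chosen on wild-type values, and those values are the controls here, so the following counts, and the tests of single members below, describe and support nothing. At an adjusted p under 0.05 in edgeR's quasi-likelihood test, 4.32% of the 8496 genes tested were called in ΔLGIIK9het25 and 16.5% in Δdim-5. Of the 100 most abundant genes none was called in ΔLGIIK9het25 by edgeR, DESeq2 or limma-voom, and 1 had an unadjusted p under 0.05 by each of the 3. In Δdim-5 edgeR called 4, namely ccg-6, NCU00811 and NCU09175, which rose, and NCU05259, which fell. The last 3 were named after their values were seen. The count was 2 without wild-type replicate 1 or 4 and 1 without Δdim-5 replicate 1 or 2.

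The clock-controlled gene ccg-6 was chosen for its wild-type level. Its Δdim-5 levels were 6193, 7222, 5588 and 5673 CPM, all above the wild type's 3893 to 4592 CPM, a log2 fold change of 0.59 ± 0.17 (SE), with an adjusted p of 0.0288 by edgeR's quasi-likelihood test. The call was lost in 5 of 17 alternatives, among which adjusted p ran from 0.00748 to 0.0859. It was lost without wild-type replicate 1 or 3, without Δdim-5 replicate 1 or 2, and with a replicate block.

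Of the 100 most variable genes, 5 were called in ΔLGIIK9het25, 1 higher and 4 lower (NCU03415, NCU04697, fbp-1, NCU07133 and NCU09648, named after their values were seen), and 26 in Δdim-5, 6 higher and 20 lower. Among all genes tested, 3.08% were higher and 1.24% lower in ΔLGIIK9het25, and 9% and 7.53% in Δdim-5. Among those with a wild-type mean of at least 10 CPM, which the variable genes all have, 0.692% were higher and 1.46% lower in ΔLGIIK9het25, and 4.87% and 9.28% in Δdim-5, so that lower calls were in the majority there too. The count of 5 became 9 without wild-type replicate 1 or 2, 3 without replicate 3 and 1 without replicate 4 or without ΔLGIIK9het25 replicate 1, 3 or 4, and it was 13 by DESeq2. Its split became 3 higher and 0 lower without wild-type replicate 3, and 3 and 1 with a replicate block. The count of 26 became 17 without wild-type replicate 4 and 16 without Δdim-5 replicate 4. Its split became 13 higher and 15 lower without wild-type replicate 3, and 2 and 28 without replicate 2. The light gene cry, with its large difference inside the wild type, was not called, at a log2 fold change of 0.54 in Δdim-5 (adjusted p = 0.738 by edgeR). The gene fbp-1 fell in Δdim-5 to 10.4, 22.9, 19.4 and 22.7 CPM, a log2 fold change of -2.94 ± 0.61 (SE; edgeR, adjusted p = 0.00548), with adjusted p from 1.91e-06 to 0.0261 over 17 alternatives. The ranges overlapped, since wild-type replicate 2 stood at 21.5 CPM. In ΔLGIIK9het25 fbp-1 stood at 33.8, 47.0, 22.9 and 16.9 CPM, a log2 fold change of -2.36 ± 0.60 (edgeR, adjusted p = 0.0426), and the call was lost in 10 of 17 alternatives, with adjusted p from 0.000749 to 0.142, among them leaving out wild-type replicate 3 or 4 or any library of the mutant.

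The gene NCU04482 fell in Δdim-5 to 4.29 to 7.95 CPM in every library, against 178 to 429.9 CPM in 3 wild-type libraries and 8.37 CPM in replicate 2 (log2 fold change -5.27 ± 1.31, edgeR, adjusted p = 0.0143, 0.105 by limma-voom and 0.000105 to 0.105 over 17 alternatives). In ΔLGIIK9het25 it stood at 110.1, 521, 8.79 and 11.3 CPM, so its low state was also seen in 2 libraries there. NCU10040 rose in Δdim-5 by 3.15 ± 0.94 on the log2 scale (edgeR, adjusted p = 0.0359), a call lost in 7 of 17 alternatives, including leaving out any 1 of wild-type replicates 2, 3 and 4 or Δdim-5 replicates 1, 2 and 3, with adjusted p from 0.00424 to 0.0945. Both NCU04482 and NCU10040 were chosen for their spread in the wild type, whose libraries are the controls of these tests. The fold changes and p-values thus describe and support nothing.

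A mutant's mean lay inside the range of the 4 wild-type libraries for 85 of the 100 most variable genes in ΔLGIIK9het25 and for 63 in Δdim-5, and for 85 and 74 of the 100 most abundant. Over all 6216 genes it did so for 69.7% and 50.5%. The variable genes were chosen for a large wild-type SD, which gives them a wide wild-type range. Their higher shares thus follow at least in part from the choice. The gluconeogenic gene acu-6 stood at 171, 65.6, 51.9 and 51.8 CPM in ΔLGIIK9het25, against 174, 117, 1391 and 363 CPM in the wild type, so that the ranges overlapped, with a log2 fold change of -2.54 that missed the threshold (edgeR, adjusted p = 0.130). Over all 8496 genes tested, 16.5% were called in Δdim-5. Of the 11 light and clock genes, edgeR called 1 there, cao-2, a carotenoid oxygenase gene. It stood there at 152, 214, 237 and 246 CPM, against 154, 124, 77.5 and 70.0 CPM in the wild type, and rose by 1.05 ± 0.30 on the log2 scale (edgeR, adjusted p = 0.0275). That call was lost without wild-type replicate 3 or 4 or Δdim-5 replicate 2, 3 or 4, with adjusted p from 0.00558 to 0.0808 over the alternatives.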

How the data were processed

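Per the labels, the authors deposited the raw counts of reads in each gene as whole numbers. HISAT2, HTSeq and DESeq2 are named in the submitters' processing notes, and the deposited files' names say that strand was ignored, although the kit was directional, so values of overlapping and antisense genes are uncertain. Not given in the sources used here were genome build, annotation and versions. Totals leave out 5 entries for reads not counted in a gene, of which reads outside genes took 8.85% to 36.8% of the wild-type entries. Symbols and gene order came from the RefSeq table of assembly NC12, which held 9729 of 9730 gene identifiers.

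CPM, means and SDs were computed with Python 3.11.15 and pandas 2.3.3. Log2 values used a pseudocount of 0.5 CPM. Variable genes needed a mean of at least 10 CPM, steady ones 50. Strains were compared with edgeR 4.0.16 in R 4.3.3 (TMM, filterByExpr, glmQLFit and glmQLFTest), all 12 libraries in 1 fit without covariates, Benjamini-Hochberg adjusted over 8496 genes. The test was tried on simulated data. Each SE of an edgeR log2 fold change was derived from the test's F statistic, as the absolute fold change on the log2 scale over the square root of F. It is thus no measure of spread separate from the test. Alternatives included DESeq2 1.42.0 and limma-voom (limma 3.58.1).

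Named genes were the 20 most abundant, the 20 most variable and 10 steadiest, the 5 widest gaps above and below per library, the 5 silent genes highest in each mutant, and members of 21 lists fixed by symbol. Members, lists and rules were chosen with earlier results of these data known. Intervals and floors cover counting error only.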

Additional observations from a re-analysis of the deposited data

Results flagged for a closer look

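The check covered 9 measures of the wild-type libraries and 85 genes, which are not all the genes named in this report. Among these, 1 gene had a library far from the other 3 by Dixon's test at the 95% level (gap over range 0.923). This was NCU06628, 1 of the 10 steadiest genes, where replicate 3 stood at 64.0 CPM and the others between 66.5 and 66.7 CPM. Chance singles out about 1 in 20 such groups, and the difference is small. NCU06628 is not the only named gene of this kind, since others, such as hH3 and mig-9, also had 1 library well apart from the rest.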

How the results depend on the processing

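The 160 genes with an SD of 1 or more became 67 with a mean of at least 50 CPM, 307 with no filter and 94 to 226 with a library left out (94 without wild-type replicate 3). The other scalings, pseudocounts, a floor of 5 CPM, thinning to 7164944 counts and totals without the 20 leading genes kept the number within 1.5 times. Genes at 0 numbered 231, against 495 with at most 3 counts, 528 under a mean of 0.1 CPM, and 266 to 329 with a library left out, which removes counts by construction. The leading 20 held 12.1%, or 9.12% with reads outside genes in the denominator, and 11.8% to 12.4% with a library left out. A level per length was planned and not run, since gene lengths of the build were not used here. Abundant genes called in Δdim-5 numbered 4, against 2 with a replicate block, 1 at an adjusted p under 0.01, and 1 to 4 with a library left out. Variable genes called in ΔLGIIK9het25 numbered 5, against 13 by DESeq2, 1 with the compared strains alone, 3 by limma-voom, 2 with a mean of at least 5 CPM, 1 at an adjusted p under 0.01, and 1 to 9 with a library left out (9 without wild-type replicate 1 or 2, 3 without 3, 1 without 4, and 1 without mutant replicate 1, 3 or 4). Those in Δdim-5 numbered 26, against 6 at an adjusted p under 0.01 and 16 to 30 with a library left out (17 without wild-type replicate 4, 16 without mutant replicate 4). The causes of the other shifts were not tested. Of the values of single genes, 521 kept their direction and side of the threshold, 48 lost the call and 0 reversed. Reads outside genes ranked alike over the replicate numbers of the wild type and ΔLGIIK9het25. Whether libraries with the same number in their titles were paired cannot be told from 4 correlations. Their deviations correlated at 0.65, -0.18, 0.08 and 0.27 between the wild type and ΔLGIIK9het25. By the numbers in the deposited files' names, which differ, 2 pairs share a number there (0.65 and 0.22) and 2 between the wild type and Δdim-5 (-0.19 and 0.06), and no block was fitted on them. The replicate block gave 28 variable genes called in Δdim-5 and 4 in ΔLGIIK9het25.

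Depth limits the silent set, since 3 counts over the 4 libraries are 0.0768 CPM.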
